A study of Mus musculus with 12 samples.

Results

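The genes described here are the 8 protein kinase C isoforms Prkca, Prkcb, Prkcd, Prkce, Prkch, Prkci, Prkcq and Prkcz, which were taken by gene symbol from the 15344 genes of the quadriceps RNA-Seq tables. All 8 were found, and all 8 passed the filter on low values in every comparison. The study sequenced quadriceps RNA of 12 C57BL/6 mice at 6 months of age, in 3 groups of 4. The WT group had the wild-type genotype, and no treatment is described for it. The KO group carried the GAA (acid alpha-glucosidase) knock-out and was injected with PBS. The AAV group carried the same knock-out and received AAV2/8-LSPhGAApA, a vector that makes human GAA from a liver-specific promoter, at 2e12 vg/kg into the tail vein. The methods describe the injected knock-out mice as males treated at 2 months of age, with tissue taken 4 months later. Loss of GAA, the lysosomal enzyme that breaks down glycogen, is the cause of Pompe disease. The comparisons address how the muscle transcriptome differs with the knock-out and with the treatment. If the WT mice were not injected, genotype and injection cannot be told apart between KO and WT. The muscle itself was not the site of transgene expression, and each library was 1 animal.

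Protein kinase C enzymes are serine/threonine kinases that relay signals from phospholipase C. Conventional isoforms (Prkca, Prkcb) need both calcium and diacylglycerol, the calcium-independent class (Prkcd, Prkce, Prkch, Prkcq) needs diacylglycerol alone, and atypical isoforms (Prkci, Prkcz) need neither and act in polarity complexes. Prkcq encodes PKC theta, the isoform best known from skeletal muscle and T cells, and in muscle it has been studied in insulin signalling and at the neuromuscular junction. Prkca encodes PKC alpha, which is found in most tissues.

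The promoters of Prkca and Prkcq are shown because these were the isoforms with the highest levels per length, and their group differences were unlike each other in size. Both windows run from 250 bases before to 50 bases after the RefSeq transcription start in GRCm38.p6, and windows were found for 6 of the 8 isoforms. The Prkca window is chr11:108343839-108344138 on the minus strand, and the Prkcq window is chr2:11172132-11172431 on the plus strand. Each is printed 5′ to 3′, with capitals marking the GC box GGGCGG on either strand:
Prkca: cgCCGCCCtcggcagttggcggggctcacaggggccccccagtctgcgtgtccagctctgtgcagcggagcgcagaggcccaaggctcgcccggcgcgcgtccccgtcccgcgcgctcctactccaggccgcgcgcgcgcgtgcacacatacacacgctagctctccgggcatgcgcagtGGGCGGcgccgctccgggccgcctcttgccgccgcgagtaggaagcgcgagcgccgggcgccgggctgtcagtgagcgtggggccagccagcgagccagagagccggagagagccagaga
Prkcq: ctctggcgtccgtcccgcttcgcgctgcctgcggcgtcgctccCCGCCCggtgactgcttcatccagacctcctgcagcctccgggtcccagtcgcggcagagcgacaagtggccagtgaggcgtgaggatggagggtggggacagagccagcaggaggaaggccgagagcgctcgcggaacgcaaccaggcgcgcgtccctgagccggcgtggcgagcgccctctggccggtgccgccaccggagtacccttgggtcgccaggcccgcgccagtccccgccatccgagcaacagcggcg
The Prkca window held 2 GC boxes and 42 CpG dinucleotides at a GC content of 75.3%, and the Prkcq window held 1 GC box and 37 CpG dinucleotides at 73% GC. Over 32851 windows of the same length, 35.7% held a GC box on either strand and the median GC content was 52.7%. The E-box CANNTG, which reads the same on both strands, occurred 1 time in each window and in 72.3% of all windows. The letters TCACGTGA, the core of the element bound by TFEB-type lysosomal regulators and itself an overlap of the E-box, were in neither window and in 0.974% of all windows.

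The values are normalized counts, which are read counts per gene that the authors divided by a size factor for each library. They rest on 22122233 to 47379737 reads per library, with 32299356 to 47379737 in the libraries labelled WT, 31225360 to 40846896 in those labelled KO and 22122233 to 31974197 in those labelled AAV. The check of the labels came first, because Gaa went against them. Gaa (chr11:119267887-119285454, plus strand) had normalized counts of 342.9, 14640, 323.8 and 460.3 in the libraries labelled WT 1 to 4. It had 12151, 13074, 11936 and 12895 in those labelled KO, and 946.8, 587, 499.6 and 9854 in those labelled AAV. Gaa was therefore high in all 4 libraries labelled KO and low in 3 of the 4 labelled WT, and WT 2 and AAV 4 stood apart from the rest of their groups. Every direction below follows the labels as given, and each isoform was also compared without WT 2 and without AAV 4. These fits cannot check the labels, because Gaa in the remaining WT and AAV libraries was still below that in every KO library. The libraries carried the markers of skeletal muscle, with Acta1, the actin of muscle fibres, between 719662 and 1753640 normalized counts. Of 10 fibre markers, the myosin heavy chains Myh1 (-1.36), Myh2 (-1.89) and Myh7 (-2.42) were lower and Myh4 (0.73) was higher in KO than in WT on the log2 scale, and Myh1 (1.09), Myh2 (2.31) and Myh7 (5.78) were higher in AAV than in KO, where 27.6% and 26.3% of all genes passed. Without WT 2, 1 of the first 4 passed (Myh1), beside 17.9% of all genes. Without AAV 4, where Myh7 was at 41.3 normalized counts against 1095 to 4306 in the other AAV libraries, its log2 fold change was 7.18 in AAV against KO. The part of these fibre-type differences in the isoform values was not tested. WT 3 also stood apart from the other libraries labelled WT: its 8 leukocyte markers summed to 1008 normalized counts against 3039 to 3627, and its 8 endothelial markers to 5934 against 2392 to 3585. The 4 adipocyte markers summed to 7004 in KO 3 against 338 to 988 in the other KO libraries. In WT 1 they summed to 2179, against 203 to 1041 in the other WT libraries. In bulk muscle, fewer cells of a type and less RNA per cell cannot be told apart.

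Prkca was the isoform called both for KO against WT and for AAV against KO, while no difference of Prkcq passed the test. Prkch and Prkcd had the same directions as Prkca. For AAV against KO, Prkch missed the threshold by limma (log2 fold change -0.72, adjusted p = 0.0707). Between the libraries labelled KO and WT, 3 of the 8 isoforms passed an adjusted p of 0.05, all higher in KO: Prkca, Prkch and Prkcd. Of all 14859 genes tested, 27.6% passed, with 12.3% higher and 15.3% lower. Under the stricter rule, which adds a log2 fold change of 1 or more in size, 1 isoform (Prkch) passed, against 13.9% of all genes. From KO to AAV, 1 of 8 isoforms passed (Prkca, lower), against 26.3% of 14894 genes and 13.4% in the lower direction. Prkca, at a log2 fold change of -1.01, also just met the stricter rule, as did 8.98% of all genes. It fell short of that rule when scaled by total reads (-0.84) and with the length (-0.85) or GC (-0.86) correction. The same held without KO 1 (-0.99), KO 2 (-0.99), KO 4 (-0.96) or AAV 4 (-0.93). Between the libraries labelled AAV and WT, limma called 0 of 8 isoforms, against 1.29% of 14939 genes. In that comparison 1 isoform (Prkci) had an unadjusted p under 0.05, and both edgeR and DESeq2 on the recovered reads also called 0. The median log2 fold change of the 8 isoforms was 0.39, -0.03 and 0.25 in the 3 comparisons, beside 0.02, 0.04 and -0.03 over all genes tested. The first 2 comparisons share the libraries labelled KO, so that their values stand side by side and are not independent.

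**Figure D1:**
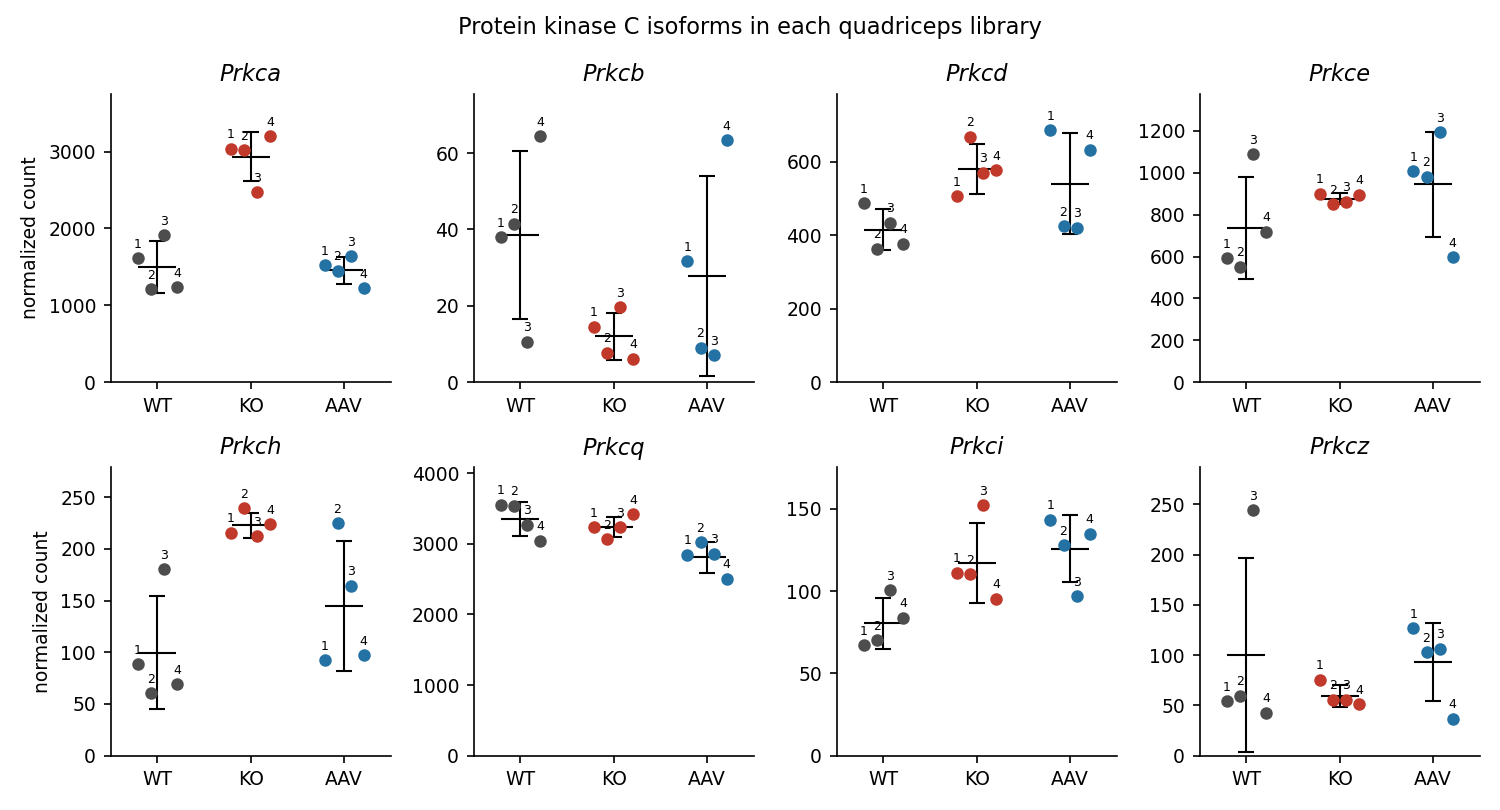
Normalized count of each protein kinase C isoform (vertical axis, linear from 0) in the 12 libraries, grouped by label (horizontal axis). Points are animals, numbered as in the labels, and bars are the mean and SD of 4. All 4 KO points of Prkca (2470 to 3200) sit above the WT and AAV points (1209 to 1916), whereas Prkcq lies between 2506 and 3552 in every library.

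Prkca (ENSMUSG00000050965, chr11:107933387-108343928, minus strand, protein coding), the broadly expressed conventional isoform, had normalized counts of 1617, 1209, 1916 and 1240 in the libraries labelled WT 1 to 4. Those labelled KO had 3037, 3020, 2470 and 3200, and those labelled AAV had 1523, 1453, 1638 and 1221. Every KO library was above every WT and every AAV library, and the WT and AAV values overlapped. Groups without overlap were found for 28.3% of all genes between KO and WT and for 30.6% between AAV and KO. The level was 1.99-fold higher in KO than in WT (log2 fold change 0.99, SE 0.17, 95% interval 0.62 to 1.36, adjusted p = 0.00401). It was lower in AAV than in KO (log2 fold change -1.01, SE 0.13, interval -1.29 to -0.73, adjusted p = 0.0016). Between AAV and WT the log2 fold change was -0.02, with an interval from -0.42 to 0.39 (adjusted p = 0.972). Both calls held in every alternative, including each animal left out, with adjusted p between 6.0e-06 and 0.0161 for KO against WT and between 8.1e-11 and 0.0161 for AAV against KO. Its annotated exons share 30 bases (0.334% of their length) with Apoh on the other strand, whose mean was 21 normalized counts.

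Prkcb (ENSMUSG00000052889, chr7:122288751-122634402, plus strand), a conventional isoform best known from B cells and other leukocytes, had the fewest reads of the 8, between 6 and 69 per library. Its normalized counts were 38, 41.5, 10.6 and 64.4 in the 4 WT-labelled libraries, 14.5, 7.70, 19.6 and 6.19 in the KO-labelled, and 31.7, 9.06, 7.09 and 63.3 in the AAV-labelled. WT 3 lay inside the KO range, and of the AAV libraries AAV 2 and AAV 3 lay inside it and AAV 1 and AAV 4 above it. The log2 fold change from WT to KO was -1.49 (SE 0.55, interval -2.71 to -0.27, adjusted p = 0.0671) and missed the threshold by limma. It passed with edgeR (adjusted p = 0.0469), with DESeq2 (adjusted p = 0.0146) and without WT 3 (log2 fold change -2.0, adjusted p = 0.00263), out of adjusted p from 0.00263 to 0.172 over the alternatives. Between AAV and KO it was 0.78 (adjusted p = 0.392), and between AAV and WT -0.72 (adjusted p = 0.624).

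Leukocyte markers are given beside Prkcb. The summed normalized count of the 8 of 10 listed leukocyte markers in the tables lay between 1008 and 3627 in the libraries labelled WT, 546 and 1044 in KO and 541 and 3194 in AAV. Of these 8, 3 were lower in KO than in WT (Cd68, Emr1 and Lyz2) and 0 were higher by limma, beside 15.3% lower over all genes. With edgeR and with DESeq2, 5 were called, where 26.8% and 32.7% of all genes passed. Without WT 3 the limma count was 6 lower, where 3578 of 14796 genes were lower and 48.4% passed in either direction. Between AAV and KO limma called 0 of the 7 tested (2 at an unadjusted p under 0.05), and edgeR and DESeq2 called 2 each. Between AAV and WT all 3 tools called 0 (1 at an unadjusted p under 0.05 by limma). Cd68, a macrophage gene, was at 560, 590, 69.8 and 568 in WT and at 28.2 to 36.7 in KO. The T cell gene Cd3e was at 0 in KO 1 and AAV 2, at 22.3 in WT 2 and at no more than 8.78 in the others. The 3 libraries with the highest sums were WT 4, WT 1 and AAV 4, and AAV 4 had 63.3 normalized counts of Prkcb. The part of leukocyte RNA in the Prkcb values was not tested.

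**Figure D2:**
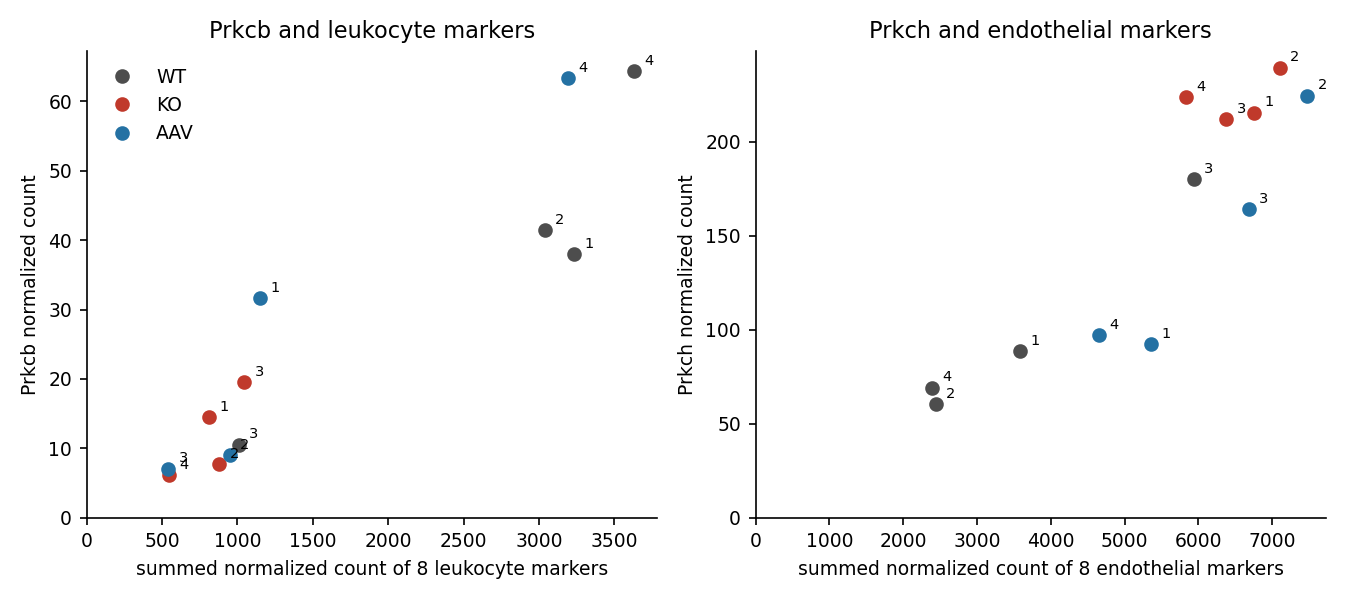
Normalized count of Prkcb against the summed normalized count of 8 leukocyte markers (left), and of Prkch against that of 8 endothelial markers (right), 1 point per library, coloured by label and numbered by animal. The libraries labelled WT 1, WT 2, WT 4 and AAV 4 lie at the upper right for Prkcb (38 to 64.4), and WT 3 lies beside the KO libraries in both panels.

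Of the calcium-independent class, Prkch and Prkcd were higher in the libraries labelled KO than in those labelled WT. Prkch (ENSMUSG00000021108, chr12:73584796-73778185, plus strand) encodes PKC eta, which is found in epithelia and in endothelial and immune cells. It had 88.7, 60.6, 180 and 69.2 normalized counts in WT, 215, 239, 212 and 224 in KO, and 92.3, 225, 164 and 97.3 in AAV. All KO values were above all WT values, and the AAV group was split, with 1 library (AAV 2) inside the KO range. The level was 2.44-fold higher in KO than in WT (log2 fold change 1.29, SE 0.30, interval 0.62 to 1.96, adjusted p = 0.0133), and this call held in every alternative. Between AAV and KO the log2 fold change was -0.72 (SE 0.27, interval -1.31 to -0.13, adjusted p = 0.0707). It passed without AAV 2 (log2 fold change -0.96, adjusted p = 0.0173), out of adjusted p from 0.0173 to 0.173 over the alternatives. Between AAV and WT it was 0.57 (adjusted p = 0.465).

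Endothelial markers are given beside Prkch. Their sum lay between 2392 and 5934 normalized counts in the WT-labelled libraries, 5825 and 7104 in KO and 4651 and 7471 in AAV. Of the 8 markers, 5 were higher in KO than in WT (Pecam1, Cdh5, Tie1, Esam and Vwf) and 0 were lower, beside 12.3% higher over all genes. Without WT 2 the count was 3 higher, where 1127 of 14723 genes were higher, and without WT 3 it was 8 higher, where 3585 of 14796 genes were higher. The list's median log2 fold change was 0.97 for KO against WT, -0.06 for AAV against KO and 0.83 for AAV against WT. Vwf, the von Willebrand factor of vessel walls, was at 98.5 to 226 in WT, 516 to 797 in KO and 248 to 379 in AAV, and it was the 1 marker called between AAV and KO (log2 fold change -1.07, adjusted p = 0.00682). Esam was the 1 marker called between AAV and WT (0.99, adjusted p = 0.0248), where 1.29% of all genes passed. Without WT 2 its fold was also 0.99 and its adjusted p 0.0807, and 0.269% of all genes passed. The part of vessel cells in the Prkch values was not tested.

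Prkcd (ENSMUSG00000021948, chr14:30595354-30626210, minus strand), which encodes PKC delta, a kinase known from stress and cell death signalling, had 487, 364, 433 and 376 normalized counts in WT. It had 505, 668, 570 and 576 in KO and 685, 424, 420 and 632 in AAV. The KO and WT values did not overlap, though KO 1 and WT 1 were close. The level was 1.40-fold higher in KO (log2 fold change 0.48, SE 0.14, interval 0.16 to 0.80, adjusted p = 0.0330). The call did not hold with a correction for exon length (log2 fold change 0.33, adjusted p = 0.108), in the fit of all 12 animals (0.48, adjusted p = 0.0608), or in 5 of the 8 fits that left out 1 animal, with adjusted p for WT 2 (0.0727), WT 4 (0.0839), KO 2 (0.102), KO 3 (0.0724) and KO 4 (0.0754). In these 5 fits the log2 fold change was 0.41 to 0.49. The AAV libraries lay on both sides of the KO range, with log2 fold changes of -0.13 against KO (adjusted p = 0.61) and 0.35 against WT (adjusted p = 0.381).

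Prkce (ENSMUSG00000045038, chr17:86167785-86657919, plus strand), which encodes PKC epsilon, a kinase studied in muscle and heart signalling, was at 591, 551, 1088 and 719 normalized counts in WT. It was at 900, 849, 861 and 895 in KO and at 1007, 982, 1194 and 597 in AAV. The KO libraries lay close together between WT 3 and the other WT libraries. The log2 fold changes were 0.30 for KO against WT (interval -0.14 to 0.74, adjusted p = 0.267), 0.07 for AAV against KO (adjusted p = 0.811) and 0.37 for AAV against WT (adjusted p = 0.485). Without WT 3 the first was 0.51 and passed (adjusted p = 0.0061, out of 0.0061 to 0.699). Its exons share 472 bases (6.5% of their length) with another annotated gene on the same strand.

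The atypical isoforms did not pass in any comparison with all animals. Prkci (ENSMUSG00000037643, chr3:30995747-31052959, plus strand), the polarity kinase PKC iota, had 67, 70.2, 101 and 83.9 normalized counts in WT, 111, 110, 152 and 95.5 in KO, and 143, 128, 96.8 and 135 in AAV. In both KO and AAV, 3 of 4 libraries were above all libraries labelled WT. The log2 fold change was 0.54 for KO against WT (SE 0.21, adjusted p = 0.0793) and 0.64 for AAV against WT (SE 0.22, interval 0.161 to 1.123, adjusted p = 0.165). The first passed without WT 3 (0.65, adjusted p = 0.0213, out of 0.0213 to 0.238), and AAV against KO gave 0.11 (adjusted p = 0.703).

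Prkcz (ENSMUSG00000029053, chr4:155260129-155361361, minus strand), the polarity kinase PKC zeta, had 54.3, 59.5, 244 and 42.9 normalized counts in WT. It had 75.4, 55.6, 55.5 and 51.3 in KO and 127, 103, 106 and 36.7 in AAV. WT 3 was the highest library of all, and AAV 4 was the lowest of all while the other 3 AAV libraries were above every KO library. The log2 fold changes were -0.37 for KO against WT (interval -1.43 to 0.68, adjusted p = 0.571), 0.52 for AAV against KO (adjusted p = 0.291) and 0.14 for AAV against WT (adjusted p = 0.911). Without AAV 4, AAV against KO was 0.91 and passed (adjusted p = 0.0137, out of 0.0137 to 0.559). Without WT 3, KO against WT turned to 0.18 (adjusted p = 0.525).

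Prkcq (ENSMUSG00000026778, chr2:11172108-11301222, plus strand), the muscle isoform, varied least of the 8 between libraries. Its normalized counts were 3552, 3542, 3271 and 3043 in WT, 3232, 3065, 3237 and 3419 in KO, and 2843, 3025, 2860 and 2506 in AAV. KO and WT overlapped throughout, with a log2 fold change of -0.05 (SE 0.10, adjusted p = 0.749) and an interval from -0.28 to 0.18. With a correction for exon length this value was -0.25 (adjusted p = 0.114), and that of AAV against KO was -0.083. The 4 AAV values were below all KO and all WT values, though AAV 2 (3025) was close to WT 4 (3043) and KO 2 (3065). The log2 fold change of AAV was -0.21 against KO (SE 0.10, interval -0.42 to 0.01, adjusted p = 0.135) and -0.26 against WT (SE 0.13, interval -0.53 to 0.02, adjusted p = 0.310). These differences did not pass the test, and groups without overlap were found for 30.6% and 11.7% of all genes in those comparisons. Prkcq passed under no alternative, with adjusted p from 0.114 to 0.916 for KO against WT, from 0.0754 to 0.766 for AAV against KO and from 0.147 to 0.738 for AAV against WT. Scaling by total reads in place of the authors' size factors moved the median of all genes from 0.04 to 0.20 for AAV against KO and from -0.03 to 0.12 for AAV against WT. On that scale Prkcq was at -0.04 and -0.10 and Prkca at -0.84 and 0.13, so that the small AAV differences of Prkcq depend on the scaling, while Prkca against KO stayed called. The same scaling turned 1911 higher and 1999 lower calls over all genes into 2394 and 1270 for AAV against KO, and 142 and 51 into 284 and 36 for AAV against WT.

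**Figure D3:**
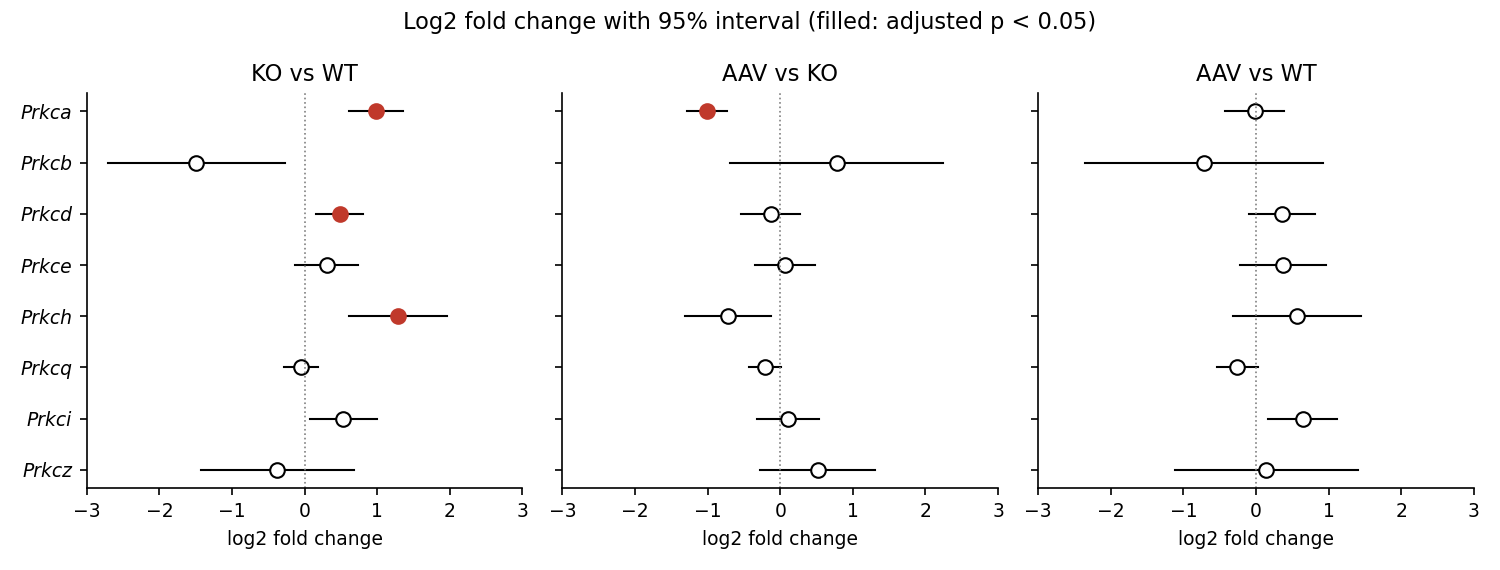
Log2 fold change (horizontal axis) of each isoform in the 3 comparisons, with 95% intervals from limma, and filled points for an adjusted p under 0.05. Prkca is at 0.99, -1.01 and -0.02 from left to right, Prkch and Prkcd are filled in the left panel only, and the intervals of Prkcq stay within -0.53 and 0.18.

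Over the 12 libraries the coefficient of variation was 9.81% for Prkcq, 22% for Prkcd, 24% for Prkce, 25.6% for Prkci, 38.8% for Prkca, 44.3% for Prkch, 68.4% for Prkcz and 82.1% for Prkcb. Prkcq ranged 1.42-fold from its lowest library (AAV 4) to its highest (WT 1), and Prkca 2.65-fold from WT 2 to KO 4. Across the 12 libraries, the Pearson correlation of Prkcq with Prkca on the log2 scale was 0.33, with Prkch 0.03 and with Prkci -0.62, whereas Prkca and Prkch had 0.79 and Prkca and Prkcb -0.68. These describe libraries that differ by group and share a scaling, and no test was made on them.

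Levels of different genes were compared per kb of annotated exon. Prkcq was the highest isoform and Prkca the next in all 12 libraries, with means of 442 and 218 normalized counts per kb. Prkce (117) and Prkcd (92.3) followed, and Prkce was above Prkcd in 9 of 12 libraries, so that their order was not the same throughout. Prkch (20.7) was above Prkci (19.4) in 7 of 12 libraries, and these ranges overlapped. Their order differed by group, with Prkch lower in the means of WT (13.2 against 14.5) and AAV (19.2 against 22.7) and higher in KO (29.6 against 21.1). Prkcz (13.3) was below Prkci in 11 of 12 and above Prkcb (3.41) in 10 of 12 libraries.

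Of the summed level per kb of the 8 isoforms, Prkcq made up 46.9% to 61.6% in the libraries labelled WT, 40.5% to 44.8% in KO and 44.8% to 49.1% in AAV. Prkca made up 16.6% to 21.6%, 26.9% to 31.7% and 18.4% to 20.6%. The ratio of Prkcq to Prkca per kb was 2.79, 3.72, 2.17 and 3.12 in the libraries labelled WT 1 to 4, and it was 1.35, 1.29, 1.66 and 1.36 in those labelled KO. In those labelled AAV it was 2.37, 2.64, 2.22 and 2.61. The KO ratios were below all WT and all AAV ratios, and the WT and AAV ratios overlapped. The sum itself was 774 to 985 normalized counts per kb in WT, 1020 to 1122 in KO and 737 to 896 in AAV. Exon lengths are those of the annotation and not of the transcripts used in muscle, and the order, the shares and the sums depend on them.

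**Figure D4:**
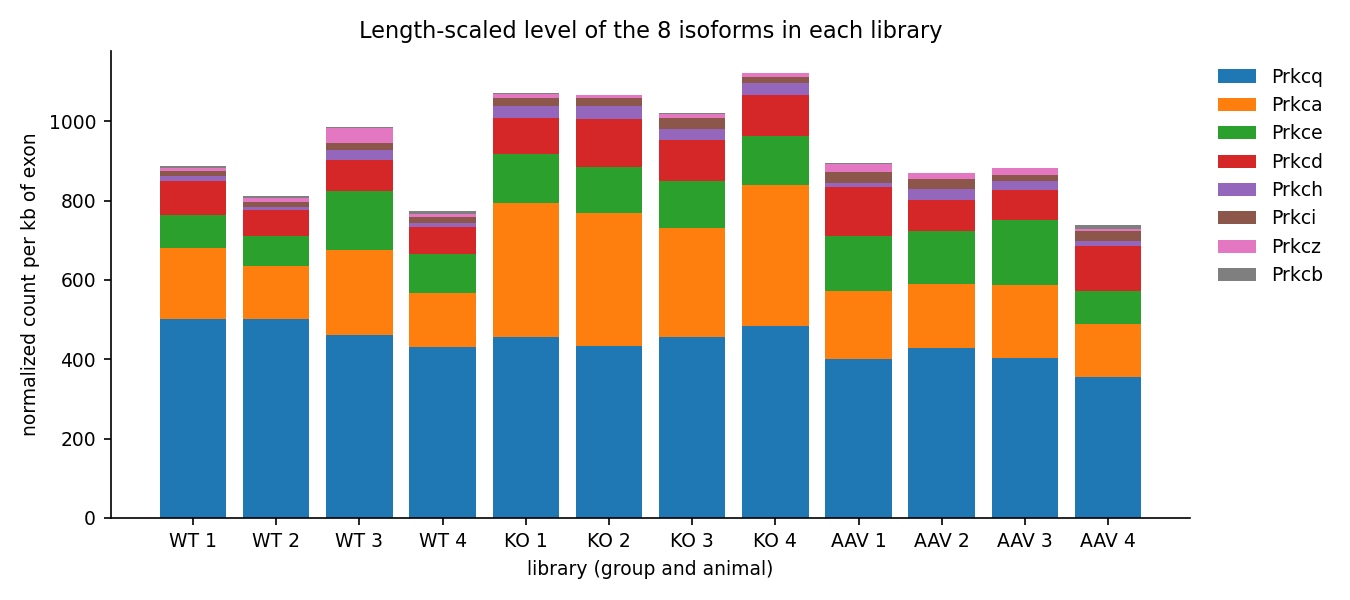
Normalized count per kb of annotated exon of the 8 isoforms (vertical axis, stacked, linear from 0) in each library (horizontal axis, label and animal). The stack is highest in the KO libraries (1020 to 1122), where the Prkca part is largest, and the Prkcq part at the base differs little between libraries.

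The 5 genes whose level followed Prkcq most closely over the 12 libraries, among 11070 genes with a mean of at least 50 normalized counts, were Gm12070 (Pearson r = 0.90), Tcp1 (0.90), RP23-203H20.2 (0.87), Sirt2 (0.86) and Rnf130 (0.86). Tcp1, a subunit of the cytosolic chaperonin, was at 5928 ± 476 (SD, n = 4) in WT, 5408 ± 270 in KO and 4369 ± 386 in AAV. Sirt2, a protein deacetylase, was at 3454 ± 428, 3413 ± 223 and 2679 ± 297. These genes were picked for their likeness over the same libraries, so that means lowest in AAV, as for Prkcq, come with the choice.

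Genes that act before and after the kinases were read from 7 lists, whose counts stand beside 12.3% higher and 15.3% lower of all genes for KO against WT and 12.8% higher and 13.4% lower for AAV against KO. Of the 69 genes of these lists tested for KO against WT, 19 were called, near the 27.6% of all genes. Of these 19 calls, 11 held without WT 2 and 19 without WT 3, where 17.9% and 48.4% of all genes passed. AAV against KO had 18 calls, near the 26.3% of all genes. Of these 18, 16 held without AAV 4, where 67 genes of the lists were tested and 22.1% of all genes passed. Of the 11 receptors and G proteins of the Gq pathway in the tables, which activate phospholipase C, 4 were higher in the libraries labelled KO than in those labelled WT and 0 were lower (list median log2 fold change 0.25), beside 12.3% higher over all genes. Without WT 2, 2 of the 4 passed (Adra1a and Ednrb). Adra1a, the alpha-1A adrenergic receptor, was at 38, 26.6, 47.1 and 25.4 normalized counts in WT, 90.8, 74.4, 95.7 and 78.7 in KO, and 45.5, 48.3, 59.1 and 24.8 in AAV. Its KO values were above all others, with log2 fold changes of 1.32 for KO against WT (adjusted p = 0.00548) and -0.98 for AAV against KO (adjusted p = 0.0256). Ednrb, the endothelin B receptor, was at 33 to 180 in WT, 252 to 452 in KO and 107 to 269 in AAV, with log2 fold changes of 2.12 (adjusted p = 0.0133) and -1.15 (adjusted p = 0.0218). Agtr1a, an angiotensin II receptor, and Gna14, a Gq-class alpha subunit, were higher in KO than in WT by 1.44 (adjusted p = 0.0256) and 1.53 (adjusted p = 0.0467) on the log2 scale, and neither passed without WT 2 (adjusted p = 0.061 and 0.109). Gna14 was low, at 3.19 to 17.9 normalized counts in WT, 18.5 to 34.8 in KO and 15.6 to 33.2 in AAV. With edgeR, 3 genes of this list were called between KO and WT in place of 4. Of the libraries labelled WT, WT 3, which had the highest endothelial sum, was also the highest for Ednrb (180) and Agtr1a (61.7), and the part of vessel cells in these values was not tested. Of 10 genes of this list tested between AAV and KO, 2 were lower (Adra1a and Ednrb) and 1 was higher (Gna11).

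Of 13 phospholipase C genes, whose catalytically active products make diacylglycerol, 1 was higher and 1 lower in KO than in WT (list median -0.13), beside 12.3% higher and 15.3% lower over all genes. Plcd4 was at 1562 to 2950 normalized counts in WT and 3424 to 4665 in KO (log2 fold change 1.02, adjusted p = 0.00877), and Plcl1, a relative without catalytic activity, was lower (-0.73, adjusted p = 0.0171). Between AAV and KO, Plcd1 was higher (1.08, adjusted p = 0.00518) and Plcl2, a relative without catalytic activity like Plcl1, was lower. Of 8 diacylglycerol kinases, which remove diacylglycerol, Dgkq was higher in KO than in WT (0.65, adjusted p = 0.0309) and also in AAV than in WT (1.13, adjusted p = 0.0481). The call for AAV against WT was lost without WT 2 (1.17, adjusted p = 0.117) and without AAV 4 (1.02, adjusted p = 0.0854), with a fold of like size. Between AAV and KO, Dgkb was lower (-1.21, adjusted p = 0.0421; without AAV 4, 0.0823) and Dgkz higher.

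Of 10 genes for priming phosphorylation and dephosphorylation of these kinases, 3 were higher in KO than in WT and 0 lower (list median 0.10), beside 12.3% higher over all genes, and 1 of the 3 (Rictor) passed without WT 2. Rictor, the subunit that defines the mTOR complex acting on the tail of protein kinase C, was at 277, 208, 498 and 242 normalized counts in WT and at 963, 781, 634 and 832 in KO. It was at 362, 542, 501 and 264 in AAV. All KO values of Rictor were above all others, with log2 fold changes of 1.46 for KO against WT (adjusted p = 0.00462) and -0.98 for AAV against KO (adjusted p = 0.0149). The phosphatases Phlpp1 and Phlpp2 were also higher in KO, and Phlpp1 and Pdpk1, the activating kinase, were lower in AAV than in KO.

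Of 10 anchors and scaffolds, 2 were lower in KO than in WT and higher in AAV than in KO (list medians -0.22 and 0.19), near the shares of all genes (15.3% lower and 12.8% higher). Prkcdbp, a caveolar protein that binds PKC delta, was at 575, 655, 231 and 516 in WT, 167, 186, 206 and 172 in KO and 375, 267, 244 and 505 in AAV. Its log2 fold changes were -1.33 (adjusted p = 0.0103) and 0.87 (adjusted p = 0.0201). Pick1, a PDZ protein named for binding PKC alpha, had -0.75 (adjusted p = 0.00644) and 0.88 (adjusted p = 0.00464).

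Of 11 substrates and inhibitors, 1 was higher and 4 were lower in KO than in WT (list median -0.46), beside 12.3% higher and 15.3% lower over all genes, and Add3 and Add1 were the ones that passed without WT 2. Add3, a membrane skeleton protein, was the higher one (0.96, adjusted p = 0.0043), and it was lower in AAV than in KO (-0.82, adjusted p = 0.00894), as were Kcnj11 (-0.67, adjusted p = 0.0272; without AAV 4, 0.0539) and Irs1 (-0.71, adjusted p = 0.03). Marcksl1 (-1.64, adjusted p = 0.0364) and Ppp1r14a, an inhibitor of myosin phosphatase (-1.43, adjusted p = 0.0339), were the lower ones past a fold of 1 on the log2 scale, with 7.70 to 69.2 and 10.9 to 71.4 normalized counts over the WT and KO libraries. Of the 6 related kinases, Pkn3 and Prkd3 were higher in KO than in WT, and Prkd3 was lost without WT 2 (adjusted p = 0.0692). Pkn3 was at 84.2 to 141 in WT, 146 to 202 in KO and 320 to 517 in AAV, and it was higher in AAV than in KO (1.11, adjusted p = 0.00457) and than in WT (1.82, adjusted p = 0.00939). That call held without WT 2 and without AAV 4, and without both the fold was 1.97 with an adjusted p of 0.053. Pkn2 (-0.93, adjusted p = 0.00359) and Prkd3 (-0.65, adjusted p = 0.00716) were lower in AAV than in KO, and Prkd2 was higher in AAV than in WT (0.91, adjusted p = 0.0481). Without WT 2 its fold was 0.92 with an adjusted p of 0.121. Between AAV and WT, 0 genes of the lists for phospholipase C, Gq receptors, priming, anchors and substrates passed by limma, beside 1.29% of all genes, with 6 at an unadjusted p under 0.05, and edgeR called 0 and DESeq2 1.

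**Figure D5:**
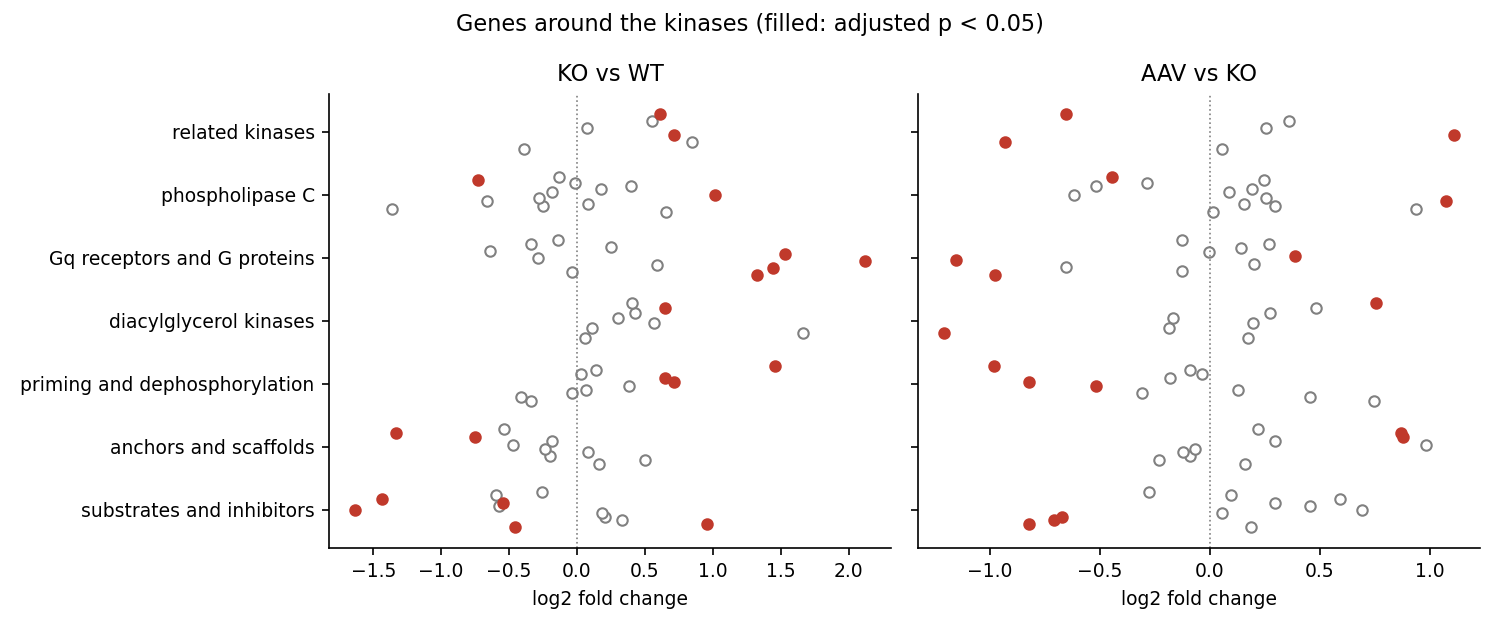
Log2 fold change (horizontal axis) of each gene of 7 lists around the kinases (vertical axis, 1 point per gene, spread for legibility) for KO against WT and for AAV against KO. Filled points have an adjusted p under 0.05. The filled points of the Gq receptor list lie between 1.32 and 2.12 in the left panel, and Adra1a and Ednrb are at -0.98 and -1.15 in the right panel.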

How the data were processed

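RNA-Seq of quadriceps from 12 mice was used, in 3 labelled groups of 4, and conditions were taken from the sample labels. For the deposited signal values, which are normalized counts, the authors trimmed reads, aligned them with STAR to mouse build GRCm38, kept reads with a unique location, counted them per gene, kept genes with at least 10 reads and divided each library by a DESeq2 size factor. The submitters' processing notes name Trim Galore 0.4.1, FastQC 0.11.2, HTSeq 0.6.1 and DESeq2 1.16.1. Whether counting used strand is not given in the sources used here. The deposited tables also hold the authors' log2 fold change with its error, statistic score, p-value and adjusted p-value for each comparison, and these were not used. All per-sample columns were used (0 left out). The libraries labelled KO differed by 0 between the tables, so AAV and WT were on one scale.

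Comparisons used limma (trend option) on log2(value + 1), over genes that reached a value of 10 in any library compared, with Benjamini-Hochberg adjustment over all genes tested; fold changes are on that scale, which understates changes of low genes. A call is an adjusted p under 0.05. Dividing by the step of each library gave whole reads for 100% of the values checked (tolerance 0.01), and edgeR and DESeq2 were run on these. Totals of 22122233 to 47379737 reads per library limit the precision of low genes, and p-values measure the spread between these animals. Scripts were tested on simulated data. Coordinates and exon lengths came from GENCODE M21 on GRCm38 (15186 of 15344 identifiers found), and promoters from RefSeq.

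The isoforms, gene lists and marker lists were chosen with earlier results of these data known. The rule for named genes took the 8 isoforms, Gaa, the called genes of each list whose log2 fold change was 1 or more in size (at most 4 per list and comparison), and the 5 genes most like Prkcq. Other genes of the lists and marker genes were named after their values were seen. Alternatives were the test, scaling, filter, pseudocount (0.1), corrections for GC content and length, the replicate number as a block, all 12 animals in one fit and animals left out. The lists were also compared without WT 2, WT 3 or AAV 4, a choice made after seeing the data. Software was R 4.3.3, limma 3.58.1, edgeR 4.0.16, DESeq2 1.42.0, Python 3.11.15, pandas 2.3.3, numpy 2.4.6 and matplotlib 3.10.9.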

Additional observations from a re-analysis of the deposited data

Results flagged for a closer look

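Of 24 sets of 4 libraries (8 isoforms in 3 groups), 1 had a library far from the others. Prkcz was at 244 normalized counts in the library labelled WT 3 against 42.9 to 59.5 in the other libraries of that label, and the gap took up 0.917 of the range, above the limit of Dixon's test for 4 samples. Chance gives about 1 such set in 20.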

How the results depend on the processing

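Each count of called isoforms and each isoform's log2 fold change was recomputed under the alternatives, and 389 of 416 fold changes kept their direction and their side of the threshold. The count for KO against WT, 3 as reported, was 4 with edgeR and with DESeq2 and 2 with the length correction, with the replicate block and with all 12 animals in one fit. Prkcq passed in 0 of them, and the calls of Prkca (KO against WT, AAV against KO) and Prkch (KO against WT) held in each. Leaving out 1 animal gave 2 to 6 isoforms called between KO and WT (6 without WT 3, where 48.4% of all genes passed; 2 without WT 2), 1 to 2 between AAV and KO (2 without AAV 2 and 2 without AAV 4) and 0 between AAV and WT, which was also 0 without WT 2 and AAV 4 together. In 7 lists around the kinases, where this was tried after seeing the data, 0 of 3 calls for AAV against WT held without those 2 libraries, with log2 fold changes of 1.97 (Pkn3), 0.86 (Prkd2) and 1.06 (Dgkq) in place of 1.82, 0.91 and 1.13. Over all genes, the count called with 1 animal left out was 2353 to 7163 for KO against WT, 1961 to 5071 for AAV against KO and 18 to 442 for AAV against WT. That last count was 193 as reported, 935 with DESeq2, 892 with all 12 animals in one fit, 320 scaled by total reads, 112 with the length correction and 10 without WT 2 and AAV 4 together.

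Directions turned in 12 values, in which neither the reported nor the alternative value passed. For AAV against KO these were Prkcd scaled by total reads (0.035) and Prkce without AAV 3 (-0.062, out of -0.062 to 0.27 with 1 animal left out), and for KO against WT Prkcz without WT 3 (0.18, out of -0.65 to 0.18). For AAV against WT, Prkca turned to 0.13 scaled by total reads, 0.03 without WT 1, 0.11 without WT 3 and 0.07 without AAV 4. Prkcz turned to -0.11 with edgeR, -0.12 with DESeq2, -0.02 without WT 1, -0.13 without WT 4 and -0.05 without AAV 1 (from -0.13 to 0.70 with 1 animal left out; -0.11 to 0.11 for Prkca). The causes were not tested.

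The numbers of the labels stand for different animals. Same-numbered libraries had correlations of their deviations from -0.355 to 0.554 over 12 pairs. Differently numbered libraries of different groups were not compared, so these correlations alone cannot decide on pairing. With the replicate block, 2 isoforms were called between KO and WT (Prkcd had an adjusted p of 0.0881), 1 between AAV and KO and 0 between AAV and WT, and Prkcq had log2 fold changes of -0.05, -0.21 and -0.26. Over all genes, the calls went from 4097 to 3062 and from 3910 to 2179 in the first 2 comparisons. Counts of 6 to 69 reads per library limit what Prkcb can show.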
